A study of Rattus norvegicus with 8 samples.

Results

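The renal organic anion transporters of the Slc22 family were examined in the kidney cortex of male and female rats. The group held 8 genes, Slc22a6 (Oat1), Slc22a8 (Oat3), Slc22a7 (Oat2), Slc22a12 (Urat1), Slc22a13 (Oat10), Slc22a24 (Oat5), Slc22a22 (Oat-pg) and Slc22a25 (Ust1r), out of 14737 genes with a named probe on the array. The genes were listed by name and their probes were found through the transcript accession of each probe. Probes were selected on their detection over background, and the leading probe of a gene was chosen by its brightness, as the mean signal over all arrays, so that neither choice used the difference between the sexes. The members had 9 probes, 1 for each gene and 2 for Slc22a13. All 9 passed the detection limit, for which a probe had to be well above background on 4 or more arrays. The probe closest to that limit was the second one of Slc22a13, which was well above background on 7 arrays, and the other 8 probes were so on every array.

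The samples were 4 male and 4 female adult rats of the strain RCCHanTMWIST, an outbred Han Wistar stock, which had received no treatment. RNA of a cortical kidney slice from each rat was labelled with Cy3 and hybridized to an Agilent one-colour rat array, so that every array stood for a different animal. The values given here are log2 signals from which the array's own 75th percentile was subtracted, and a log2 fold-change is the male mean minus the female mean on that scale. Probes with an adjusted p below 0.05 (limma with Benjamini-Hochberg adjustment over the 23425 probes tested) and a log2 fold-change of 1 or more in either direction are called sex-dependent here. Between 73.8% and 79.1% of the probes were well above background on an array, and no spot was saturated. All arrays lay on 1 slide with 2 rows and 4 columns, and each row held 2 arrays of each sex and each column 1 of each sex.

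Organic anion transporters carry negatively charged drugs, toxins and metabolites across the membranes of the proximal tubule. Slc22a6 and Slc22a8 stand in the basolateral membrane and take up anions from the blood in exchange for dicarboxylates such as α-ketoglutarate, which are brought in by sodium-coupled carriers. Slc22a12 and Slc22a13 work in the brush border, where they exchange urate and other anions, and Slc22a24 exchanges steroid sulfates there. Slc22a7 carries a wide range of small anions and in rat kidney lies in the brush border of the last part of the proximal tubule. Slc22a22 takes up prostaglandins, and Slc22a25 has no well-known substrate. The study from which the arrays came asked how sex sets the levels of Oat1 and Oat3 in rat kidney.

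The promoters of Slc22a24 and Slc22a25 are shown because these relatives lie near each other on chromosome 1, share a stretch of promoter sequence, and fell on different sides of the call, with Slc22a24 called and Slc22a25 not. Each sequence runs from 250 bases before to 50 bases after the start site (RefSeq, GRCr8). Capitals mark the longest run of bases that both promoters hold and, in Slc22a24, a match to the STAT core.
Slc22a24, chr1:214394632-214394931, minus strand: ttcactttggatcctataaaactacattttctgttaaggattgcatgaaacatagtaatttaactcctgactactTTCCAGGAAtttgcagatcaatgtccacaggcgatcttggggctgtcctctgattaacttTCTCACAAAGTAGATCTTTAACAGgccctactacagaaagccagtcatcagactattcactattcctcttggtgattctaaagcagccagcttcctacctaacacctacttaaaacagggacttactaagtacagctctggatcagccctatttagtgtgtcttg
Slc22a25, chr1:214862291-214862590, minus strand: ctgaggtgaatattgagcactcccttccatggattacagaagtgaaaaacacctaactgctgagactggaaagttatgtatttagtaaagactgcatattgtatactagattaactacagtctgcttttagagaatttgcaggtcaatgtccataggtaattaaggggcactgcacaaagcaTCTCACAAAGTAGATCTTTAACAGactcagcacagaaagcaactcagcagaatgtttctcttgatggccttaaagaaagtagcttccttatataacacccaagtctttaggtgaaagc
The promoter table held 7 of the 8 members, and Slc22a6 was the gene without an entry. The motifs were searched on both strands of these 7 promoters and of all 27457 promoters of the same length. The BCL6 motifs TTCCTAGAA and TTCCTCGAA, which are special cases of the STAT core TTCNNNGAA, were present in 0.364% and 0.0728% of all promoters and in none of the 7. The STAT core, which reads alike on both strands, was found in 8.68% of all promoters and in that of Slc22a24, where the match TTCCAGGAA began at position -175. The HNF4 core CAAAGTCCA (0.375% of all promoters) was in none of the 7. These matches describe letters in a short window and were not tested against binding. The study searched longer promoter stretches of Oat1 and Oat3 with another tool. It predicted BCL6 sites in both, none of which matched the consensus fully. In its luciferase assays in opossum kidney cells, BCL6 activated all Oat1 constructs and the shorter Oat3 constructs. The longest Oat3 construct showed a positive trend that was not significant. The shared run of Slc22a24 and Slc22a25 had 24 bases and began at position -115 in the former and at position -68 in the latter, and in the other 20 pairs of member promoters the longest run had 6 to 12 bases.

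Of the 9 member probes, 5 were sex-dependent, against 1.89% of all tested probes. A single probe, that of Slc22a22, was higher in males (0.798% of all tested probes), and 4 probes of 3 genes, Slc22a7, Slc22a13 and Slc22a24, were higher in females (1.09% of all tested probes). Slc22a6 and Slc22a12 also met the adjusted p, but their differences stayed under 2-fold. They came on top of the 5 sex-dependent probes. The 8.06% of all tested probes that met the adjusted p include the sex-dependent ones. For 8 of the 9 probes, the values of males and females did not overlap, which was the case for 18.5% of all tested probes. The genes had been put together with results of these arrays known, so that these shares are a description of the group. Over the 8 leading probes the median log2 fold-change was 0.04 and the median of its absolute size was 1.50. Over the leading probes of all named genes these were -0.02 and 0.142. The median log2 fold-change of the members is the midpoint of Slc22a25 and Slc22a8, which differed little.

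**Figure D1:**
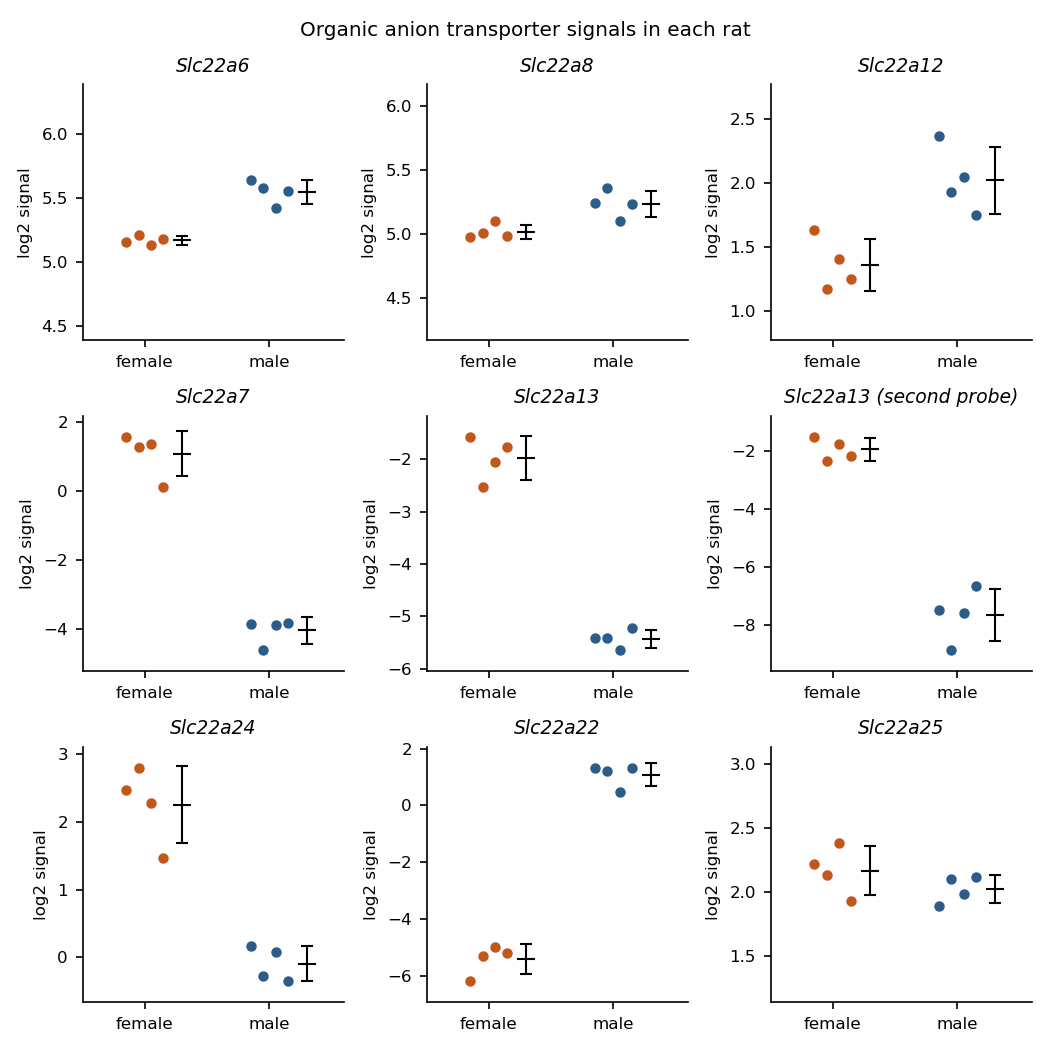
Log2 signal relative to the 75th percentile of the array (y axis) of each of the 9 member probes in 4 female and 4 male rats (points), with mean and SD (bars). Each panel has its own y range, which spans at least 2 log2 units, and the sexes overlap for Slc22a25 and for no other probe.

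**Figure D2:**
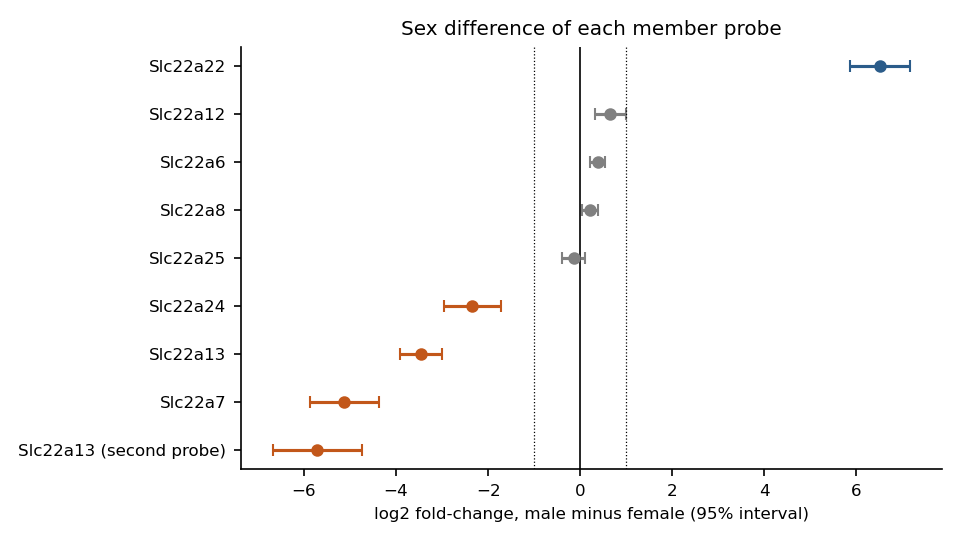
Log2 fold-change, male minus female, of the 9 member probes (x axis) with 95% confidence intervals from limma. Blue and orange mark probes counted as higher in males and in females, grey marks the others, and dotted lines mark 2-fold, and the points run from -5.71 for the second probe of Slc22a13 to 6.51 for Slc22a22.

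Among the basolateral uptake transporters, Slc22a6 (A_64_P025918), the classical p-aminohippurate carrier of the kidney, was higher in males by a small amount. In females 1 to 4 the log2 signal was 5.16, 5.21, 5.13 and 5.18, and it was 5.64, 5.58, 5.42 and 5.56 in males 1 to 4. Every male lay above every female, and the females differed little among themselves. The female mean was 5.17 ± 0.034 (SD, n = 4) and the male mean 5.55 ± 0.094 (SD, n = 4). Males exceeded females by a log2 fold-change of 0.38 with a standard error of 0.069 (adjusted p = 0.0153), or 1.30-fold. A two-sided exact permutation test gave p = 0.0286, the smallest that 4 rats against 4 allow. The difference was 0.44 and 0.32 within the rows of the slide and 0.29 to 0.49 within its 4 columns, and with the column as a block the adjusted p was 0.0624.

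Slc22a8 (A_64_P052225), which shares many substrates with Slc22a6 and also takes up bulky and sulfated anions, differed less. The females had log2 signals of 4.98, 5.01, 5.10 and 4.98 for rats 1 to 4, and the values were 5.25, 5.36, 5.10 and 5.23 in males 1 to 4. The ranges touched without overlapping, since the lowest male and the highest female both lay at 5.10 after rounding. At 1.16-fold, the log2 fold-change of 0.22 (95% interval 0.05 to 0.39) missed the threshold with an adjusted p of 0.113. It passed after quantile normalization of the arrays (0.30, adjusted p = 0.0294) and in the deposited table of log2 values (0.31, adjusted p = 0.0238). Both scalings also moved the median log2 fold-change of all tested probes, from -0.04 to 0.00. The brightest spots of Slc22a6 and Slc22a8 reached 46.7% and 33.2% of the saturation value of the scanner.

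By real-time PCR on RNA of the same rats, the study reported Oat1 and Oat3 as sex-dependent, with a larger difference for Oat1. On the arrays, the sex differences of Slc22a6 and Slc22a8 were compared through the difference of their log2 signals within each rat. The level of this difference depends on the probes and has no meaning of its own, so that its change between the sexes was the quantity compared. It was 0.18, 0.21, 0.03 and 0.20 in females 1 to 4 and 0.40, 0.22, 0.32 and 0.32 in males 1 to 4. The lowest male lay just above the highest female. The means were 0.15 ± 0.081 (SD, n = 4) and 0.31 ± 0.073 (SD, n = 4), and the sex difference of Slc22a6 was larger by 0.16 on the log2 scale (two-sided exact permutation test, p = 0.0286, the smallest possible). In the deposited log2 table the excess was 0.16 with an exact permutation p of 0.0571, and after normexp background correction 0.13 with an exact permutation p of 0.0857. It was 0.12 to 0.18 with an exact permutation p of 0.0571 when any of the 4 females was left out. The 2 spots of the Slc22a6 probe on an array differed with an SD of 0.083, which is of the size of the spread between rats.

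**Figure D3:**
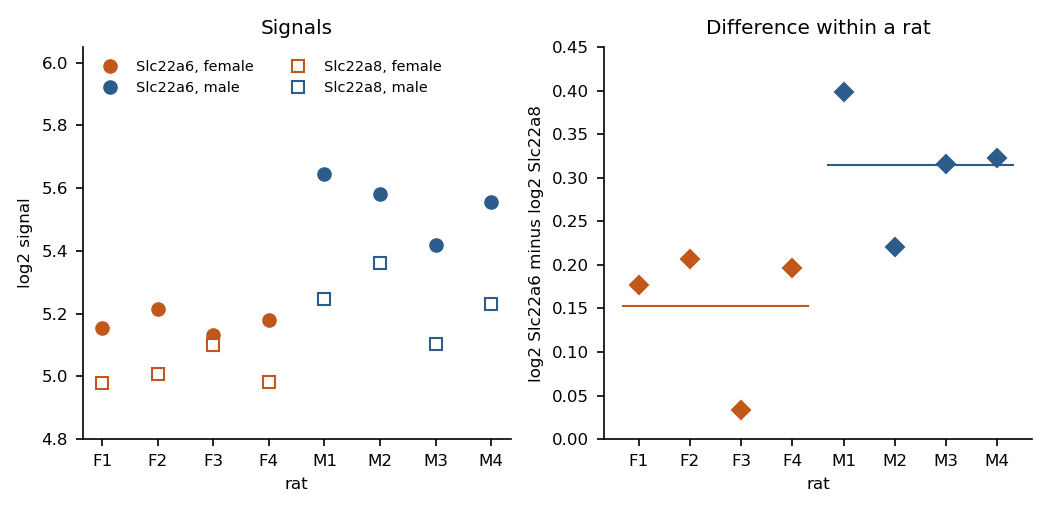
Left, log2 signal relative to the 75th percentile of the array for Slc22a6 (filled circles) and Slc22a8 (open squares) in female rats F1 to F4 (orange) and male rats M1 to M4 (blue). Right, log2 Slc22a6 minus log2 Slc22a8 within each rat with the mean of each sex (lines), 0.15 in females and 0.31 in males.

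Slc22a7 (A_64_P126030) had the largest female-dominant difference among the leading probes of the members. Its log2 signal was 1.58, 1.28, 1.36 and 0.13 in females 1 to 4 and -3.84, -4.60, -3.89 and -3.80 in males 1 to 4. Female 4 lay clearly below the other females, but still far above every male. The means were 1.09 ± 0.65 (SD, n = 4) and -4.03 ± 0.38 (SD, n = 4), and the signal was 34.8-fold higher in females, which is a log2 fold-change of -5.12 with a standard error of 0.325 (adjusted p = 0.000238). Without female 4 the log2 fold-change was -5.44.

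Slc22a24 (A_64_P031501), the steroid sulfate exchanger of the brush border, was also higher in females. Log2 signals of 2.46, 2.79, 2.27 and 1.46 were measured in females 1 to 4 and of 0.17, -0.28, 0.08 and -0.35 in males 1 to 4. Female 4 was again the lowest of the females, and no male reached it. It was 5.06-fold higher in females, with a log2 fold-change of -2.34, a standard error of 0.270 and an adjusted p of 0.00234, and the log2 fold-change was -2.60 without female 4. This female was the lowest of the 4 for 193 of the 256 probes that were higher in females over the whole array, and for 30.3% of all tested probes.

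Both Slc22a7 and Slc22a24 are known from the third segment of the proximal tubule, and the 5 measured markers of this segment (Slc5a1, Slc6a18, Slc7a13, Slc1a1 and Atp11a) were therefore set beside them. Their mean log2 signal was 1.50, 1.22, 1.25 and 0.82 in females 1 to 4, with female 4 again the lowest, and between 1.07 and 1.17 in males. Of the 5, 0 were sex-dependent by limma, also at an unadjusted p below 0.05 with the same fold, and their log2 fold-changes ran from -0.90 for Slc7a13, a cystine and aspartate transporter (adjusted p = 0.0639), to 0.65 for Slc1a1, the glutamate transporter (adjusted p = 0.0238). The part of this segment in the values of Slc22a7 and Slc22a24 was not tested. In tissue RNA, fewer cells of a type and less RNA per cell cannot be told apart.

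Of the brush border urate transporters, Slc22a12 (A_64_P155059), through which urate is reabsorbed, was higher in males. Its signal on the log2 scale was 1.63, 1.17, 1.40 and 1.25 in females 1 to 4 and 2.37, 1.93, 2.05 and 1.75 in males 1 to 4. The lowest male stood just above the highest female. The means were 1.36 ± 0.20 (SD, n = 4) and 2.02 ± 0.26 (SD, n = 4), which is a 1.58-fold difference with an adjusted p of 0.0358 (log2 fold-change 0.66, standard error 0.151). The difference was 0.73 and 0.59 within the rows of the slide and 0.58 to 0.74 within its columns, but with the row as a block the adjusted p was 0.0530. It also exceeded 0.05 when female 2, 3 or 4 or male 1, 2 or 3 was left out, where the log2 fold-change lay between 0.54 and 0.69.

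Slc22a13, which exchanges urate and nicotinate, moved the other way with both of its probes. The leading probe (A_64_P007990) had a log2 signal of -1.57, -2.52, -2.05 and -1.75 in females 1 to 4 and of -5.42, -5.41, -5.64 and -5.22 in males 1 to 4. The sexes were thus far apart, and the males varied less than the females. On this probe the gene was 10.9-fold higher in females, with an adjusted p of 0.000208 and a log2 fold-change of -3.45 with a standard error of 0.199. The leading probe had 1 spot on each array and the second probe 2, and their mean signals were close (809 and 767). The second probe (A_64_P007988) had -1.50, -2.33, -1.74 and -2.17 in females 1 to 4 and -7.48, -8.86, -7.57 and -6.66 in males 1 to 4. It gave 52.3-fold with an adjusted p of 0.000433, or a log2 fold-change of -5.71 with a standard error of 0.422, and was well above background in 3 of the 4 males. The 95% intervals of the 2 probes, -3.91 to -2.99 and -6.67 to -4.74, did not meet. The males of the second probe lay near the background, and the size of its difference is less certain than its direction. After normexp background correction the log2 fold-changes were -3.03 and -4.54.

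Slc22a22 (A_44_P469016), the prostaglandin carrier, was the male-dominant member with the largest difference. For females 1 to 4 the log2 signal was -6.20, -5.33, -5.00 and -5.20, and it was 1.32, 1.21, 0.48 and 1.31 in males 1 to 4. Male 3 lay below the other males, at a distance from every female that was many times the spread within a sex. The means were -5.43 ± 0.53 (SD, n = 4) and 1.08 ± 0.40 (SD, n = 4), and males were 91.3-fold higher, at a log2 fold-change of 6.51 with a standard error of 0.287 (adjusted p = 5.27e-05). The probe, which had a single spot on each array, was well above background in all females as well. The female signals were low, however, and after normexp background correction the log2 fold-change was 6.10. Of the 8 leading probes, 4 had their lowest male value in male 3, namely those of Slc22a6, Slc22a8, Slc22a13 and Slc22a22, and over all tested probes male 3 was the lowest male for 34.8%.

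Slc22a25 (A_43_P13334), a transporter-like protein without a settled substrate, showed no such difference. The log2 signal of this gene was 2.22, 2.13, 2.39 and 1.93 in females 1 to 4 and 1.89, 2.11, 1.99 and 2.12 in males 1 to 4, and the sexes overlapped. With an adjusted p of 0.453, the log2 fold-change was -0.14, and its 95% interval from -0.39 to 0.10 lay inside the 2-fold limits.

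Of the members on chromosome 1, Slc22a12 stood apart with other genes as its nearest tested neighbours. The other 4 follow each other in the RefSeq order of tested genes, with Ust5r among them. In this order, the genes of the family with a tested probe were Slc22a24, Ust5r, Slc22a25, Slc22a8 and Slc22a6. Ust5r (A_44_P228859), an orphan relative of Slc22a25, had a log2 signal of -2.41, -2.67, -2.72 and -3.23 in females 1 to 4 and of -1.67, -1.52, -1.97 and -1.70 in males 1 to 4. It was called higher in males at a log2 fold-change of 1.04 with a standard error of 0.174 and an adjusted p of 0.0107. Its size lay at the limit, and it fell short of 2-fold after normexp background correction (0.95), without female 4 (0.89) and without male 2 (0.98). Thus a female-dominant gene, a male-dominant gene and a gene with overlapping sexes followed each other among the tested genes. They were not all direct neighbours, as 4 genes without a tested probe lie between Slc22a24 and Ust5r (245 kb) and 0 between Ust5r and Slc22a25. In the RefSeq gene models of GRCr8, the whole span of Slc22a25 overlaps Slc22a8 and Slc22a6, and Slc22a25 and Slc22a8 are on opposite strands. The overlap lies upstream of the Slc22a25 start site whose promoter is shown above. A transcript from that site runs away from Slc22a8 and Slc22a6 and does not overlap them.

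For each member, the 3 nearest genes with a tested probe on either side were taken, which gave 31 genes that were no members. Ust5r was the 1 gene among them counted as higher in males (0.998% of the leading probes of all named genes), and 0 were counted as higher in females by limma, also at an unadjusted p below 0.05 with the same fold. Their log2 fold-changes ran from -0.78 to 1.04, with a median absolute size of 0.217. Around Slc22a7, Slc22a13 and Slc22a22, which lie on other chromosomes, none of the neighbours reached 2-fold. For Slc22a22 the nearest tested genes were far off, namely Derl1 at 654 kb with 9 genes between and Mtbp at 1665 kb with 8 genes between. The genes directly beside Slc22a22 were thus not measured. In all, 3 of the 31 met the adjusted p, against 9.2% of the leading probes of all named genes. Beside Ust5r these were Acaa1b, a peroxisomal thiolase near Slc22a13, at 0.38 on the log2 scale (adjusted p = 0.00877), opposite in direction to Slc22a13, and Plaat3, a phospholipase near Slc22a24, at -0.36 (adjusted p = 0.0248), in the same direction as Slc22a24.

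**Figure D4:**
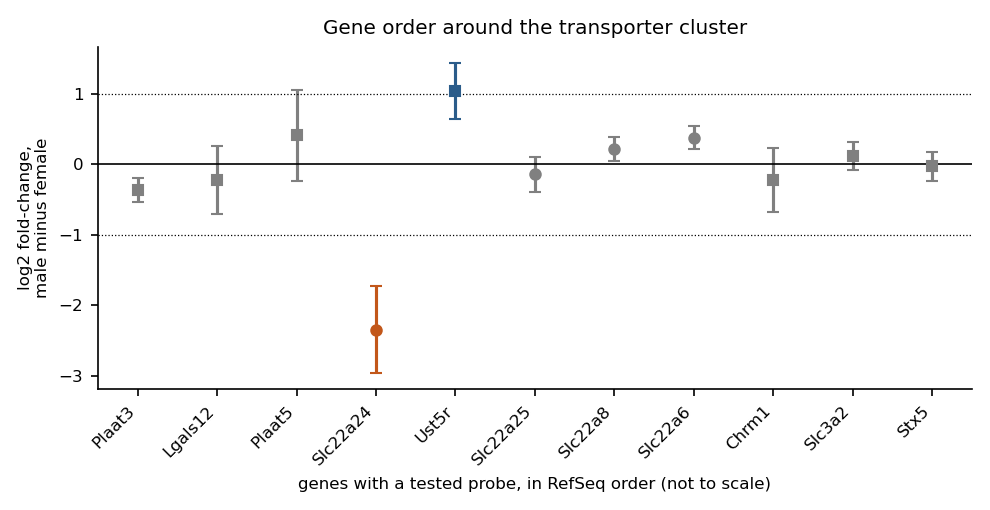
Log2 fold-change, male minus female (y axis), with 95% confidence intervals from limma, of genes in RefSeq order around the chromosome 1 cluster (x axis, not to scale). Circles are members and squares are neighbours, blue and orange mark genes counted as higher in males and in females, and dotted lines mark 2-fold. Genes without a tested probe are left out, so that Slc22a24 at -2.34 and Ust5r at 1.04 stand beside each other although 4 genes lie between them.

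Genes that work with the organic anion transporters, or are related to them, were taken by list. The lists held 7 groups with 34 measured genes that were no members, of which 4 were sex-dependent, against 2.12% of the leading probes of all named genes. The 4 genes of the basolateral driving force, which are the dicarboxylate carriers Slc13a2 and Slc13a3 and the sodium pump subunits Atp1b1 and Fxyd2, had log2 fold-changes between -0.11 and 0.20, and 0 of 4 met the adjusted p of limma or an unadjusted p below 0.05. Apical exit is served by Abcc2, Abcc4, Abcg2, Slc17a1 and Slc17a3, and 0 of these 5 reached 2-fold, with or without adjustment of the p. For 3 of them, Abcc2 (0.40), Abcg2 (0.65) and Slc17a3 (0.37), the adjusted p was met with a higher level in males, against 9.2% of the leading probes of all named genes. The median log2 fold-change of the list was 0.37, beside -0.02 over the leading probes of all named genes.

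In the urate list, 4 of 7 genes were measured and 0 were sex-dependent by limma, since none reached 2-fold. Xdh, which makes urate, was higher in males at 0.59 on the log2 scale (adjusted p = 0.0194), and Pdzk1, the scaffold that binds Slc22a12, had 0.04 (adjusted p = 0.762). Of 10 genes in the list of cation and carnitine carriers of the same family, 8 were measured and 0 were sex-dependent by limma, as again none reached 2-fold, while 6 had an unadjusted p below 0.05, as did 26% of the leading probes of all named genes. Slc22a2 (0.62), Slc22a5 (0.77) and Slc22a23 (0.39) met the adjusted p with a higher level in males, beside the 9.2% given above. In the list of further Slc22 relatives, 1 gene was measured, Ust5r, while the older name Slc22a19 led to the member Slc22a24.

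The organic anion transporting polypeptides form a separate family with overlapping substrates, and 10 of 13 were measured. Slco1a1 (A_43_P15534), a carrier of steroid conjugates in the brush border, was counted as higher in males (0.998% of the leading probes of all named genes). Its log2 signal was -6.46, -8.31, -5.14 and -8.21 in females 1 to 4 and 0.55, 0.17, 0.36 and 0.40 in males 1 to 4. The females spread over a wide range near the background, where 3 of the 4 were well above it. The adjusted p was 0.000807 at a log2 fold-change of 7.40 with a standard error of 0.650, and after normexp background correction the log2 fold-change was 6.41. Slco1a6 (A_44_P320677), a kidney relative, was counted as higher in females (1.12% of the leading probes of all named genes), with 0.42, -0.47, -0.05 and -1.23 in females 1 to 4 and -2.09, -3.00, -2.43 and -2.43 in males 1 to 4. It differed by a log2 fold-change of -2.15 with a standard error of 0.341 and an adjusted p of 0.00879, and female 4 was once more the lowest female. The other 8 had log2 fold-changes between -0.44 and 0.28.

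Of 2 regulators set beside the transporters, Bcl6 (A_44_P287301), a transcription factor that often represses but can also activate, was sex-dependent. Its log2 signal was -1.65, -1.23, -1.40 and -1.53 in females 1 to 4 and 1.17, 0.79, 0.93 and -0.04 in males 1 to 4. Every male lay above every female, with male 4 the lowest male. Males were 4.49-fold higher (log2 fold-change 2.17, standard error 0.242, adjusted p of 0.00208). By real-time PCR on RNA of the same rats, the study also found Bcl6 higher in males. For Hnf4a, a transcription factor of the proximal tubule, males exceeded females by 0.02 on the log2 scale, which did not pass limma (adjusted p = 0.952).

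**Figure D5:**
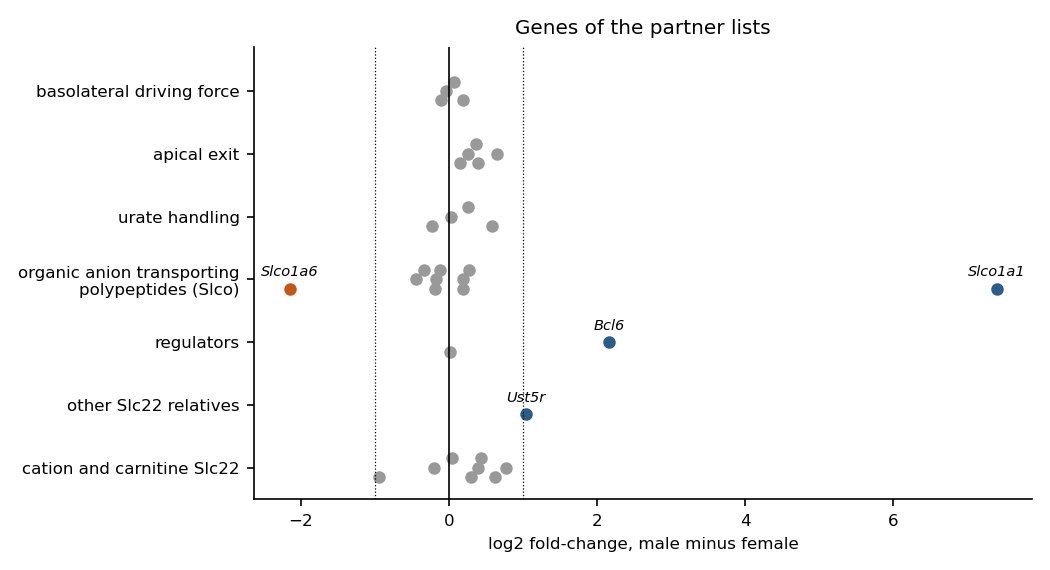
Log2 fold-change, male minus female (x axis), of the 34 measured genes in the 7 partner lists (y axis), 1 point per gene, spread vertically for clarity. Blue and orange mark the 4 genes counted as higher in males and in females, which are named, grey marks the others, and dotted lines mark 2-fold.

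The tissue labels were compared with cell type markers. The 7 markers of the first segments of the proximal tubule had a mean log2 signal of 3.14 to 3.28 in females and 3.15 to 3.22 in males, and 0 of the 7 reached 2-fold by limma. Of these, Cubn met the adjusted p with a log2 fold-change of -0.59. Of 3 measured liver markers, Fgb (fibrinogen β chain) was sex-dependent and higher in females, as were 1.12% of the leading probes of all named genes. It had an adjusted p of 0.000353 and a log2 fold-change of -1.35. Alb, with means of -7.03 in females and -6.50 in males, went the other way (log2 fold-change 0.53, adjusted p = 0.704). Ahsg had -0.05 (adjusted p = 0.917). The other 7 lists, which stood for blood, adipose tissue, the adrenal gland, the glomerulus, the collecting duct, the distal convoluted tubule and the thick ascending limb, held 0 sex-dependent genes by limma among 27 measured, and 7 of these had an unadjusted p below 0.05, beside 26% of the leading probes of all named genes. The adjusted p was met by 2 of them, Cldn16 of the thick ascending limb (-0.62, adjusted p = 0.0287) and Podxl of the glomerulus (-0.27, adjusted p = 0.0354), both lower in males. The mean log2 signal of the 4 measured thick ascending limb markers was 0.68 to 0.87 in females and 0.53 to 0.63 in males, without overlap. Of these 4, Umod, Kcnj1 and Cldn16 had lower means in males, and Ptger3 went the other way (0.40, adjusted p = 0.207). The mean of the 2 measured adrenal gland markers did not overlap either, and single probes did not overlap for 18.5% of all tested probes. The part of the thick ascending limb in the members' values was not tested.

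For each member, the 3 genes with the most similar profile over the 8 arrays were named, by the root-mean-square difference between log2 profiles centred on their own mean, among 11131 other genes. Most similar to Slc22a7 was Slc7a12, an amino acid transporter (0.397), followed by Serpina10 and Cyp1a1. Slc22a13 came closest to Cnr1, the cannabinoid receptor (0.439), and then to Cyp4f4 and Smoc2, and Slc22a24 to Ugt1a9 (0.265), Pkd2l2 and Acox2. Slc22a22 had Cyp2c11, the male-specific steroid hydroxylase of rat liver, as its nearest profile, at 0.788, before Akr1c12l1 and Dhrs7l1. For the members with small differences the distances were shorter, as their profiles are flat. They were 0.033 from Slc22a6 to Mrps25, followed by Acox3 and Stmn1, and 0.032 from Slc22a8 to Trappc1, followed by Abca2 and Dgat1. Slc22a12 was nearest to Cflar (0.127), Myo5a and C4a, and Slc22a25 to Pon3 (0.023), Ulk1 and Casp6.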

How the data were processed

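RNA from the kidney cortex of 4 male and 4 female rats was measured on 8 Agilent arrays. The authors deposited the signal intensity of every spot from Feature Extraction 10.7.3.1, background-subtracted and without normalization between arrays, and a table of log2 values that hold the same distribution on every array. The submitters' processing notes name limma 3.8.2. The array was designed on rn4, and names came from RefSeq (GRCr8), which gave 17514 of 30367 probes a gene.

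Signals were put on a log2 scale without outlier spots, scaled to the array's 75th percentile over non-control spots and averaged over the spots of each probe. Probes well above background, in the majority of their spots, on 4 or more arrays were fitted with limma 3.58.1 in R 4.3.3 as male minus female (lmFit and eBayes, no covariates), with Benjamini-Hochberg adjustment over 23425 probes. The fit was tested on simulated data. Intervals are 95% intervals of limma. Precision is limited by 4 arrays for each sex. Figures were drawn in Python 3.11.15 with matplotlib 3.10.9.

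The members, the gene lists and the marker lists were chosen with earlier results of these data known. Named were all members, genes of the partner lists and neighbours that were sex-dependent, and the 3 most similar profiles of each member, and genes that met the adjusted p or illustrate a list were added after their values were seen. Each gene was given by its brightest tested probe. Alternatives were quantile normalization, the authors' log2 values, normexp (offset 16) on the median signals of spot and background, no filter, a filter on all 8 arrays, outlier spots kept, array weights, a robust prior with an intensity trend, the replicate number or the slide row as a block, leaving out each array and, added after seeing the data, the slide column as a block. Some genes and motifs of the lists are not reported here and are left out of the list counts, and protein sequences were not used here.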

Additional observations from a re-analysis of the deposited data

Results flagged for a closer look

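Among the 18 groups of 4 values (9 probes in each sex), 2 held a rat far from the other 3 by Dixon's criterion, and chance gives this in about 1 of 20 groups. For Slc22a7, male 2 had a log2 signal of -4.60, with the other males between -3.89 and -3.80. For Slc22a22, male 3 had 0.48, with the other males between 1.21 and 1.32. Without these rats the log2 fold-changes were -4.93 for Slc22a7 and 6.71 for Slc22a22.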

How the results depend on the processing

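Under 19 alternatives, no log2 fold-change of a member reversed, 4 to 5 member probes were sex-dependent, 1 of them higher in males and 3 to 4 higher in females. The lower count came from the filter on all 8 arrays, which removed the second probe of Slc22a13. Slc22a8 passed the adjusted p with quantile normalization (0.30) and in the authors' log2 values (0.31). Slc22a12 missed it without a filter (0.66, adjusted p = 0.0641) and with the slide row as a block (0.66, adjusted p = 0.0530), and its log2 fold-change ran from 0.54 to 0.75 when each array was left out. Slc22a6 missed it with the slide column as a block (0.38, adjusted p = 0.0624). The excess of the sex difference of Slc22a6 over that of Slc22a8 missed its threshold in the authors' log2 values (0.16, exact permutation p = 0.0571) and after normexp background correction (0.13, exact permutation p = 0.0857), and ran from 0.12 to 0.19 when each array was left out, with an exact permutation p of 0.0571 when any female was left out. The count of sex-dependent neighbours fell from 1 to 0 after normexp background correction and ran from 0 to 1 when each array was left out, and Ust5r then fell short of 2-fold. The cause was not tested. Over the whole array, 187 sex-dependent probes were male-dominant and 256 female-dominant, but 223 and 221 with quantile normalization.

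Replicate numbers were shared between the sexes, but the labels do not say that they pair the rats. The deviations of equally numbered rats correlated by 0.13, 0.04, -0.01 and 0.12. For males 1, 2 and 4 the female with the highest correlation was the equally numbered one, and for male 3 it was female 4. Equally numbered rats also shared a slide column (replicates 1 and 3) or a slide row (replicates 2 and 4). Replicate number and slide position therefore cannot be fully told apart. These values do not settle whether the rats were paired, and the main fit took no pairing. With the replicate number as a block (replicate block), the log2 fold-change of Slc22a6 was 0.38 with an adjusted p of 0.0525, and the excess over Slc22a8 was 0.16 with an exact permutation p of 0.125, the smallest that 4 pairs allow. With the block, the same member probes were sex-dependent, and no member other than Slc22a6 crossed the adjusted p threshold.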
